A study of Mus musculus with 20 samples.

Results

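The response of vehicle-treated mouse macrophages to 3 h of bacterial lipopolysaccharide (LPS) was read from 7 of the 20 mRNA-seq libraries of the study, 3 labelled DMSO+LPS and 4 labelled DMSO. All libraries came from macrophages grown for 7 to 8 days from bone marrow of C57BL/6 mice in medium with 15% L929-conditioned medium, a source of the growth factor M-CSF. The solvent DMSO was present in both groups during differentiation, so that the DMSO+LPS group differed from the DMSO group by 10 ng/mL Escherichia coli LPS for the last 3 h. The remaining libraries came from cells differentiated with SGC0946, an inhibitor of the histone methyltransferase DOT1L, or given GW3965, an agonist of the liver X receptors (LXR). The libraries were taken by their treatment label. Each gene symbol was represented by the RefSeq transcript with the highest total count, which gave 24342 genes, and the 12013 that passed a filter on low counts were tested with edgeR's quasi-likelihood test. Of 772 members of 34 pathway lists, 740 passed the filter and are called measured. Means are given ± SD over the 3 DMSO+LPS and the 4 DMSO libraries, and log2 fold changes, DMSO+LPS over DMSO, ± an approximate standard error. For genes with few counts in 1 group this error is too small. DMSO+LPS replicates 1, 2 and 3 came from the mice that gave DMSO replicates 1, 2 and 3, and the mouse of DMSO replicate 4 had no DMSO+LPS library.

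LPS, a component of the outer membrane of Gram-negative bacteria, is handed by LBP and CD14 to the receptor TLR4 and its partner MD-2 on the macrophage surface. TLR4 signals through the adaptors MyD88 and TIRAP towards NF-kB and MAP kinases, and from endosomes through TRIF (Ticam1) and TRAM (Ticam2) towards IRF3 and interferon beta, which then acts back on the cells through STAT2 and IRF9. Early NF-kB targets include inhibitors of the same pathway, such as IkB-alpha (Nfkbia) and A20 (Tnfaip3). Macrophages grown in M-CSF are a standard model for this sequence of events.

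In response to LPS, 4253 genes rose and 4650 fell, 35.4% and 38.7% of the 12013 tested, at a Benjamini-Hochberg adjusted p below 0.05, so that 74.1% of the genes passed the test in 1 direction or the other. A change was beyond 2-fold for 1648 genes that rose and 1431 that fell, 13.7% and 11.9% of those tested, in edgeR's test against a 2-fold threshold. Counts of list members given below without a share are to be read against these percentages. The genes with the highest fold changes included the cytokine Il6, the endothelin gene Edn1, Ptgs2 and Nos2 of prostaglandin and nitric oxide synthesis, the chemokine Cxcl9, the adenosine receptor Adora2a and the adhesion gene Vcam1, and those with the lowest included the pro-apoptotic factor Bmf, the stress gene Sesn1 and the transcription factor Cebpa. A log2 fold change above 5, which is 32-fold, was found for 219 genes and one below -5 for 42, while under library totals, a scaling described below, 1008 genes were higher and 3758 lower beyond 2-fold. The remaining 3110 genes did not pass, and 2605 genes that rose and 3219 that fell passed without being shown to go beyond 2-fold.

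The genes beyond 2-fold were chosen by a test on these same libraries, so that a separation of the groups follows largely from that choice. All 3 DMSO+LPS libraries lay above all 4 DMSO libraries for 1646 of the 1648 genes that rose beyond 2-fold, and below them for 1429 of the 1431 that fell. Across all 12013 genes, the DMSO+LPS libraries lay wholly above the DMSO libraries for 4323 genes and wholly below for 4673. The spread within groups was small, with a median SD on the log2 scale of 0.12 among DMSO+LPS libraries and 0.10 among DMSO libraries, and a median SD of 0.17 between the 3 mice in the log2 change of the genes beyond 2-fold. At the edge of the 2-fold threshold, Pik3cd, a subunit of phosphoinositide 3-kinase, had 366 CPM in DMSO+LPS cells, against 167 CPM in DMSO cells and was just inside, and the transcriptional repressor Bcl6 had 97.1 CPM in DMSO+LPS cells, against 40.7 CPM in DMSO cells and was just outside.

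**Figure D1:**
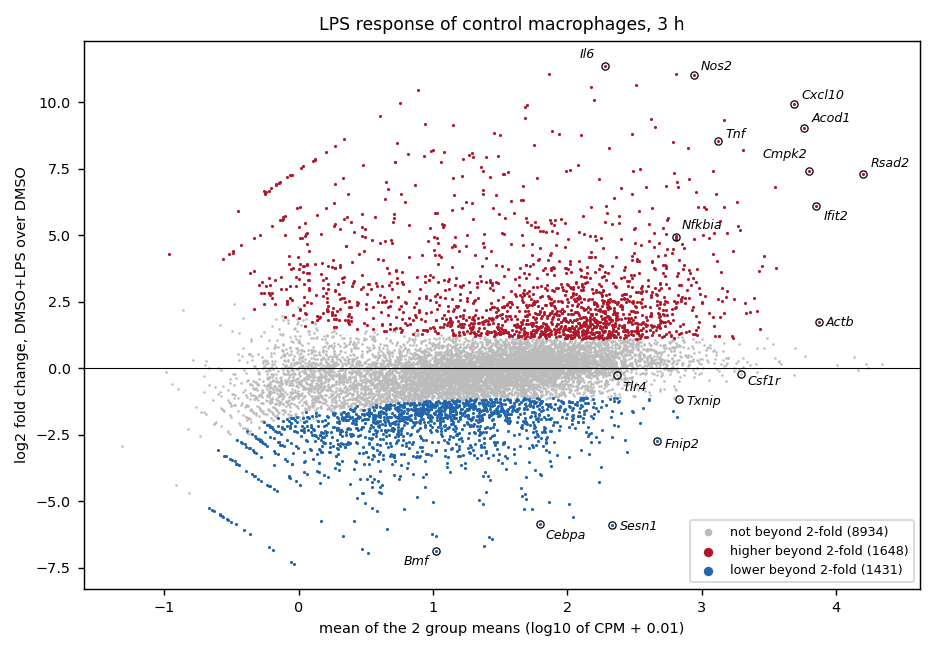
Log2 fold change of DMSO+LPS over DMSO cells (vertical axis) against mean level in CPM on a log10 scale (horizontal axis) for the 12013 genes tested, with 1 point per gene, and genes beyond 2-fold in colour. The 1648 genes that rose reach higher log2 fold changes than the 1431 that fell reach in the other direction.

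Depth, in counts of the transcripts used, was 10.26 to 13.33 M counts per library. The DMSO+LPS libraries had 10 or more counts for 10695 to 10967 genes and the DMSO libraries for 11308 to 11564. Levels are given as CPM, counts scaled to a common library size, corrected by the trimmed mean of M-values (TMM), which sets the bulk of genes level between libraries, and the TMM factors were 0.689 to 0.712 in DMSO+LPS libraries and 1.16 to 1.17 in DMSO libraries. The median log2 fold change of all genes was -0.07 under TMM, -0.02 with DESeq2-type size factors and -0.80 when counts were scaled by library totals alone. On that last scale 1980 genes rose and 8674 fell, so that 18.6% of the calls were higher, against 47.8% under TMM. Of the 4253 genes that rose under TMM, 1806 changed sign under library totals, a set that holds 0 of the 1648 that rose beyond 2-fold. That 0 follows from the threshold, since the change of scaling moves genes about alike and by less than 2-fold. Under library totals 1008 genes rose beyond 2-fold. Small changes are therefore relative to the bulk of genes, and the rising members that change sign are named or counted beside each list that has any. Since counting by strand is not given, reads of overlapping genes cannot be told apart, and of the genes named without a value for it, Arg2, Cd274, Cebpd, Dbp, Eif2ak3, Gadd45a, Ifi47, Il1a, Mcm7, Nfkb2, Psmb8, Ticam2 and Txnip have exons of which 10% or more is covered by a second gene. All 15 macrophage markers were measured, with summed levels of 23349.6 to 25002 CPM in DMSO+LPS cells and 17797 to 19332 CPM in DMSO cells. Of 90 listed markers of other cells, 27 were measured and 60 failed the filter, each of these with at most 23 counts over the 3 DMSO+LPS libraries and 28 over the 4 DMSO libraries, and 34 with none in DMSO+LPS and 22 with none in DMSO libraries. Those measured had sums of 229.6 to 267 CPM in DMSO+LPS cells and 122 to 137 CPM in DMSO cells for 7 of 15 neutrophil markers, 330.2 to 418 CPM in DMSO+LPS cells and 279 to 330.4 CPM in DMSO cells for 4 of 6 endothelial markers, and 145 to 180.3 CPM in DMSO+LPS cells and 202 to 253 CPM in DMSO cells for 3 of 13 T and NK cell markers. Sums were 130.4 to 135 CPM in DMSO+LPS cells and 75.7 to 88.8 CPM in DMSO cells for 2 of 6 megakaryocyte markers, and no more than 15.7 CPM in DMSO+LPS and 15.4 CPM in DMSO libraries for the measured dendritic, B cell, mast cell and stromal markers. The ranges of the endothelial sums overlap. The part of these markers in the results was not tested. The titles of DMSO replicates 1 to 3 carry the word reanalyzed and the other 4 libraries lack it. With DMSO replicate 4 alone as the unstimulated sample, 3732 genes rose and 4038 fell.

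The genes that rose beyond 2-fold took up a large share of the counts. They held 43.2 ± 0.367% of all counts in DMSO+LPS cells and 11.5 ± 0.359% in DMSO cells (SD, n = 3 and 4). The genes that fell beyond 2-fold held 1.18 ± 0.044% of counts in DMSO+LPS cells and 7.06 ± 0.0834% in DMSO cells. Per-length levels (RPKM, reads scaled to transcript length and library totals) show how the most abundant transcripts changed place. The chemokine Cxcl10 ranked 3 among all genes in DMSO+LPS cells with 5604 RPKM, against rank 5724 in DMSO cells with 9.33 RPKM. The antiviral enzyme Rsad2 (viperin) ranked 4 in DMSO+LPS cells with 5259 RPKM, against rank 1062 in DMSO cells with 54.7 RPKM. Acod1, which makes itaconate, had rank 12 in DMSO+LPS cells with 2794 RPKM, against rank 5961 in DMSO cells with 8.6 RPKM. Ferritin heavy chain (Fth1) and lysozyme (Lyz2) stayed among the most abundant, with 6432 and 6280 RPKM in DMSO+LPS cells and 7893 and 9514 RPKM in DMSO cells.

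**Figure D2:**
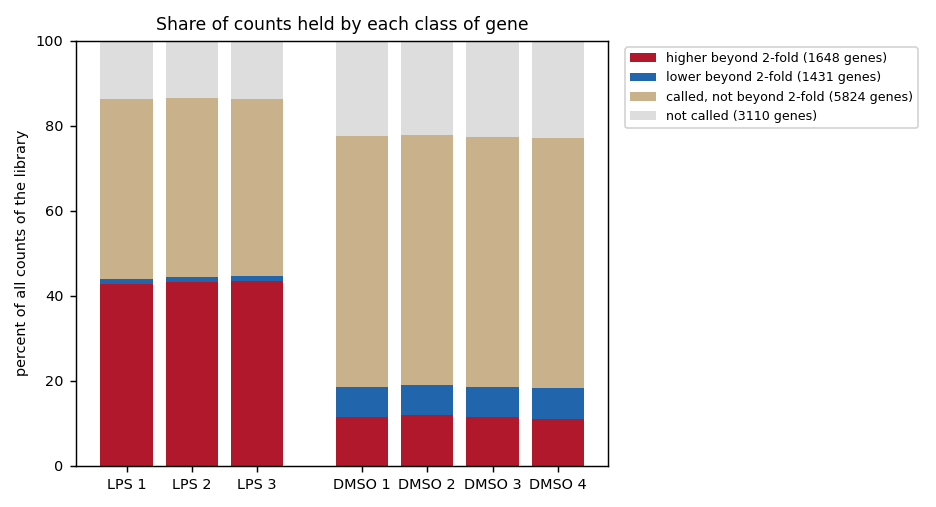
Share of all counts (percent, vertical axis) in each of the 7 libraries held by genes higher beyond 2-fold, lower beyond 2-fold, called but not beyond 2-fold, and not called, with the DMSO+LPS libraries left of the DMSO libraries. Genes higher beyond 2-fold held 42.8 to 43.5% of counts in DMSO+LPS libraries and 11.1 to 12% in DMSO libraries.

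In absolute level, the 8 largest gains were those of Rsad2, Ifit2, Cmpk2, Acod1, Cxcl10, Actb, Ifit1 and Tnfaip2. Rsad2 had 31155, 32066 and 32383 CPM in DMSO+LPS cells, against 180.2, 348, 160.3 and 126 CPM in DMSO cells. The 3 DMSO+LPS libraries were close together, while the DMSO libraries spread widely below them, with replicate 2 the highest. Actb, the cytoskeletal actin often used as a loading control, had 11458 ± 609.7 CPM in DMSO+LPS cells, against 3446 ± 135 CPM in DMSO cells, a log2 fold change of 1.73 ± 0.10, and it stayed higher when library totals alone were used. Tnfaip2, a TNF-inducible gene, had 6675 CPM in DMSO+LPS cells, against 488 CPM in DMSO cells. The largest losses were those of the desaturase gene Scd2 with 287 CPM in DMSO+LPS cells, against 1024 CPM in DMSO cells, Fnip2, which encodes a folliculin-interacting protein, with 122 CPM in DMSO+LPS cells, against 814 CPM in DMSO cells, the amino acid transporter Slc43a2 with 301 CPM in DMSO+LPS cells, against 925 CPM in DMSO cells and Txnip, which binds thioredoxin, with 418 CPM in DMSO+LPS cells, against 948 CPM in DMSO cells.

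The receptor complex itself changed little in TLR4 and much in CD14. Tlr4 fell slightly, with 226, 203 and 217 CPM in DMSO+LPS cells, against 267, 246, 262 and 252 CPM in DMSO cells, and a log2 fold change of -0.26 ± 0.06 (edgeR adjusted p = 0.00109). All 3 DMSO+LPS libraries lay below the DMSO libraries. The co-receptor Cd14 rose, with 1614, 1517 and 1604 CPM in DMSO+LPS cells, against 158, 143, 149.6 and 147 CPM in DMSO cells, a log2 fold change of 3.4 ± 0.09. Ly96, which encodes MD-2, had 30.7 ± 0.865 CPM in DMSO+LPS cells, against 13.1 ± 1.67 CPM in DMSO cells, and rose by 1.23 ± 0.14 on the log2 scale. Of the 25 measured genes of the receptor complex and its adaptors, 17 rose and 5 fell, or 68% and 20% against 35.4% and 38.7% of all genes. Beyond 2-fold were 8 and 1 of them, or 32% and 4% against 13.7% and 11.9% of all. The median log2 fold change was 0.58 (-0.15 under library totals, where 6 of the 17 change sign). Among the kinases, Irak2 and Ikbke rose beyond 2-fold, with log2 fold changes of 3.33 and 2.53, as did the adaptor Myd88 with 2.49. Irak4, the kinase recruited by MyD88, and Tab1, a partner of the kinase TAK1, fell, with log2 fold changes of -0.81 ± 0.08 and -1.35 ± 0.14. The TRIF gene Ticam1 did not pass the test, with a log2 fold change of 0.09 ± 0.08.

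Other Toll-like receptors moved in both directions. Of 11 measured, 9 rose and 2 fell, or 81.8% and 18.2% against 35.4% and 38.7% of all genes. Beyond 2-fold were 4 and 1, or 36.4% and 9.09% against 13.7% and 11.9% of all. The median was 0.71 (-0.02 under library totals, where 4 of the 9 change sign). Tlr2, the receptor for bacterial lipopeptides, had 1236 ± 37.3 CPM in DMSO+LPS cells, against 105 ± 8.92 CPM in DMSO cells. Its partners Tlr1 and Tlr6 also rose beyond 2-fold, with log2 fold changes of 2.23 and 1.67, and so did the double-stranded RNA receptor Tlr3 with 3.61. Tlr13, which senses bacterial ribosomal RNA in mouse, fell to 145 CPM in DMSO+LPS cells, against 343 CPM in DMSO cells. The flagellin receptor Tlr5 had 0.738 CPM in DMSO+LPS cells, against 1.78 CPM in DMSO cells, a log2 fold change of -1.33 ± 0.49 (edgeR adjusted p = 0.0191). Its call was lost when DMSO replicate 2 (-1.04, adjusted p = 0.0714), DMSO+LPS replicate 1 (-1.3, 0.0511) or DMSO+LPS replicate 2 (-1.01, 0.113) was left out, the adjusted p ranging from 0.000438 to 0.156 over all alternatives.

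All 13 measured NF-kB subunits and inhibitors rose, 11 of them beyond 2-fold, with a median log2 fold change of 3.16 against -0.07 for all genes, and 12 of them lay above 0 under library totals. Nfkbia, the cytoplasmic inhibitor that NF-kB itself induces, had 1217, 1246 and 1290.1 CPM in DMSO+LPS cells, against 39.2, 39.5, 41.6 and 42.8 CPM in DMSO cells, a log2 fold change of 4.94 ± 0.07 (edgeR adjusted p = 1.16e-22). The groups were far apart and each was tight. Nfkbiz, a nuclear IkB protein needed for Il6 transcription, had 1046, 1034 and 1133 CPM in DMSO+LPS cells, against 8.98, 9.22, 10.3 and 9.0 CPM in DMSO cells, a log2 fold change of 6.83 ± 0.09. Tnfaip3, the ubiquitin-editing inhibitor A20, had 2141 ± 83.7 CPM in DMSO+LPS cells, against 34 ± 3.22 CPM in DMSO cells and rose by 5.98 ± 0.09. Among the subunits, Nfkb2, Rel, Nfkb1, Relb and Rela rose by 3.77, 3.44, 3.16, 2.54 and 1.86 on the log2 scale. The smallest change was that of the deubiquitinase Cyld at 0.38 ± 0.06, and it was the gene that changed sign under library totals.

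Promoter sequence is shown for genes of this pathway and of the interferon response because their members moved together. The sequences are the 250 bases before the annotated transcription start in RefSeq, build GRCm38.p6, printed 5′ to 3′ along the gene's strand, and capitals mark matches on either strand to the NF-kB consensus or to the core of the interferon-stimulated response element (ISRE), AAANNGAAA. The Nfkbia promoter (chr12:55492648-55492897, minus strand) holds 1 NF-kB match at -29 to -20, where -1 is the base before the start. The Il6 promoter (chr5:30012864-30013113, plus strand) holds 1 at -44 to -35. The Cxcl10 promoter (chr5:92348890-92349139, minus strand) holds an ISRE match at -212 to -204 and NF-kB matches at -159 to -150 and, overlapping, at -104 to -95 and -103 to -94.
Nfkbia: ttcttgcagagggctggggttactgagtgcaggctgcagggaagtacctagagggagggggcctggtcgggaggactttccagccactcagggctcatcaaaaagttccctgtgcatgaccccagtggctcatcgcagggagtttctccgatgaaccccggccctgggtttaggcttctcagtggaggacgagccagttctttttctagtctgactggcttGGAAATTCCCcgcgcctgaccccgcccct
Il6: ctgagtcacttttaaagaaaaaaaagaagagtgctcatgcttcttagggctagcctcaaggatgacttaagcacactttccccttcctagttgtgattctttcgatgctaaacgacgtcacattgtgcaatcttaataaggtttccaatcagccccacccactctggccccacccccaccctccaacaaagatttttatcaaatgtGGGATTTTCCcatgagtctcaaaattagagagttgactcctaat
Cxcl10: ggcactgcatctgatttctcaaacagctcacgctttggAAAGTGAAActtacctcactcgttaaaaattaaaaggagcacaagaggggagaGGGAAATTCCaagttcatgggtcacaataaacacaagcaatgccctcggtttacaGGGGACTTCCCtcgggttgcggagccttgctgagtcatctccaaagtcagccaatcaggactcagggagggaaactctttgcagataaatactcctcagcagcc

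For the interferon response, the Rsad2 promoter (chr12:26456453-26456702, minus strand) holds ISRE matches at -120 to -112 and -107 to -99, on opposite strands. The promoter of Gbp5, a guanylate-binding protein of cell-autonomous defence, (chr3:142496684-142496933, plus strand) holds a pair of overlapping ISRE matches at -165 to -157 and -159 to -151 and an NF-kB match at -77 to -68. Capitals again mark these matches, from RefSeq and the same build.
Rsad2: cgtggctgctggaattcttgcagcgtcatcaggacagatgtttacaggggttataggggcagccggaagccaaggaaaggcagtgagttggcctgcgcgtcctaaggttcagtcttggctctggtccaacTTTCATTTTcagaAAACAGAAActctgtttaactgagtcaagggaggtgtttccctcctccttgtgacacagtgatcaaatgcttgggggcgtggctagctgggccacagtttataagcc
Gbp5: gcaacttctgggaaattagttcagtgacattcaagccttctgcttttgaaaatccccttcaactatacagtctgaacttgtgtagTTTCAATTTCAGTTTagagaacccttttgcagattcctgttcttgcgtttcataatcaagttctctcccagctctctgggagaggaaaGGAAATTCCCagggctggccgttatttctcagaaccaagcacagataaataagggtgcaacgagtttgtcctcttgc

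Across the tested genes, 9644, or 80.3%, had a promoter in the RefSeq table. The NF-kB consensus was found within 250 bases of 14.1% of genes that rose beyond 2-fold, 10.2% of those that fell beyond 2-fold and 10.6% of all. It stood in 7 of the 10 promoters of NF-kB subunits and inhibitors, 5 of 16 of chemokines, 7 of 21 of cytokines, 7 of 29 of type I interferon-stimulated genes, 3 of 19 of feedback inhibitors and 1 of 8 of guanylate-binding proteins and immunity-related GTPases. Among lists in which more genes fell, it stood in 4 of 11 promoters of clock genes and 2 of 32 of cell cycle genes. The ISRE core was found in 14.6% of the genes that rose beyond 2-fold, 7.21% of those that fell and 8.82% of all. It stood in 16 of 29 promoters of type I interferon-stimulated genes and in all 8 promoters of guanylate-binding proteins and immunity-related GTPases, against 5 of 21 for cytokines, 4 of 19 for feedback inhibitors, 2 of 16 for chemokines, 1 of 10 for NF-kB subunits and inhibitors, 1 of 11 for clock genes and 2 of 32 for cell cycle genes. The letters TATAAA, searched on the gene's strand, stood in 8.10% of promoters of genes that rose beyond 2-fold, 4.48% of those that fell and 4.69% of all, and in 7 of 16 chemokine, 6 of 21 cytokine and 3 of 29 interferon-stimulated promoters. A match describes these letters only, and binding was not measured.

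**Figure D3:**
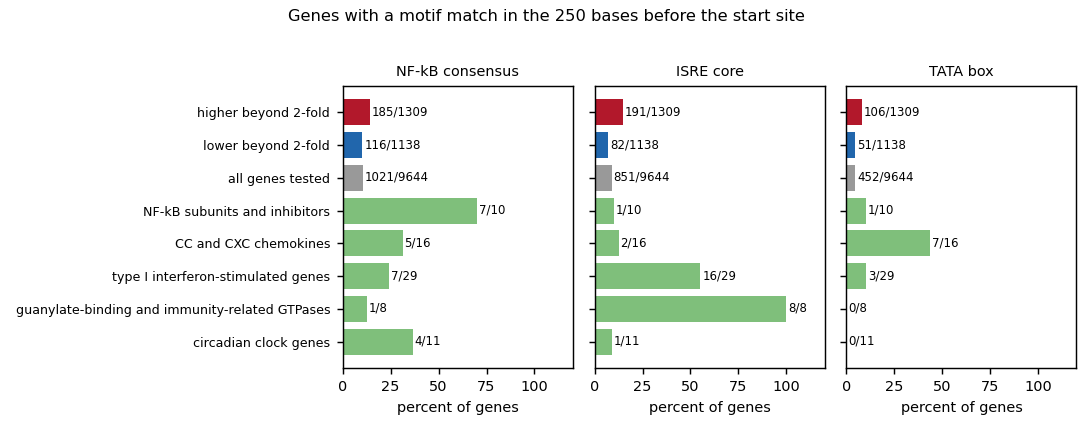
Share of promoters (percent, horizontal axis) that hold each motif within 250 bases before the start, for genes higher beyond 2-fold, lower beyond 2-fold, all tested genes and 5 gene lists. The ISRE core stands in 14.6%, 7.21% and 8.82% of promoters in the first 3 of these sets and the NF-kB consensus in 14.1%, 10.2% and 10.6%.

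Immediate early transcription factors were not uniformly high at 3 h. Of 17 measured AP-1, EGR and related factors, 7 rose and 4 fell, or 41.2% and 23.5% against 35.4% and 38.7% of all genes, 5 and 2 beyond 2-fold, with a median of 0.42 (-0.31 under library totals, where 1 of the 7, Ier5, changes sign). Junb and the Kruppel-like factor Klf6 rose, with log2 fold changes of 2.62 ± 0.08 and 2.59 ± 0.06, and the small Maf protein Maff by 4.18 ± 0.20. Fos, Jun and Egr1 did not pass the test, with log2 fold changes of 0.14, 0.05 and 0.42. Fosb had no counts in any DMSO+LPS library and 40 over the DMSO libraries, so that it was at least 6.04-fold lower. Fosl2 and Srf fell, with log2 fold changes of -0.76 ± 0.13 and -0.50 ± 0.08.

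Inhibitors that act after the receptor rose widely. Of 25 measured feedback inhibitors, 22 rose, 20 of them beyond 2-fold, and 1 fell, with a median of 3.08. Socs3, which blocks cytokine receptor signalling, had 1296, 1300.3 and 1345 CPM in DMSO+LPS cells, against 8.73, 10.4, 12.3 and 10.1 CPM in DMSO cells, and Socs1, the inhibitor of JAK kinases, had 208 CPM in DMSO+LPS cells, against 1.19 CPM in DMSO cells. The ubiquitin ligase Peli1 had 1066 ± 30.3 CPM in DMSO+LPS cells, against 47.4 ± 2.64 CPM in DMSO cells. Dusp1, the phosphatase that inactivates the MAP kinases p38 and JNK, had 26.4 ± 1.96 CPM in DMSO+LPS cells, against 7.19 ± 1.13 CPM in DMSO cells, a log2 fold change of 1.88 ± 0.20. Dusp6, the phosphatase directed at ERK, went the other way, with 3.55 ± 1.36 CPM in DMSO+LPS cells, against 15.5 ± 1.5 CPM in DMSO cells and -2.15 ± 0.34. The RNA-binding protein Zfp36 (tristetraprolin) and the RNase Zc3h12a (regnase), which destabilise cytokine mRNAs, rose by 3.08 and 2.94.

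Cytokine transcripts made up many of the highest fold changes. Of 27 measured cytokines, 21 rose, 19 beyond 2-fold, and 3 fell, 2 beyond 2-fold, with a median log2 fold change of 5.14, or 4.85 with genes at 0 counts in DMSO cells placed at their bound, and under library totals Tgfb1 and Gdf15 change sign. Il6 had 353, 406 and 384 CPM in DMSO+LPS cells, against 0, 0.133, 0.159 and 0.225 CPM in DMSO cells. It was close to 0 in every DMSO library and had the highest log2 fold change of all genes with a mean of 50 CPM or more in DMSO+LPS cells, 11.37 ± 0.23 (edgeR adjusted p = 4.39e-18). Il6 had 7 counts over the DMSO libraries, so that this standard error understates the uncertainty of its fold change. Tnf had 2667, 2759 and 2555 CPM in DMSO+LPS cells, against 6.29, 7.03, 7.24 and 8.18 CPM in DMSO cells. It was already present in DMSO cells and rose 369-fold, a log2 fold change of 8.53 ± 0.17 (adjusted p = 6.28e-21), with log2 changes of 8.62, 8.52 and 8.37 in mice 1, 2 and 3. Il1b had 849, 833 and 857 CPM in DMSO+LPS cells, against 1.51, 0.994, 1.43 and 1.2 CPM in DMSO cells, and Il1a, the other interleukin-1, had 609.7 CPM in DMSO+LPS cells, against 1.37 CPM in DMSO cells. Both interleukin-1 genes were near 0 without LPS.

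The subunits of the interleukin-12 family moved unequally. Il12b, the p40 subunit shared by interleukin-12 and interleukin-23, had 159, 583 and 156 CPM in DMSO+LPS cells, against 0.0839, 0.133, 0.239 and 0.300 CPM in DMSO cells. DMSO+LPS replicate 2 stood well above the others, and the log2 fold change of 10.55 had a standard error of 0.78. That was the largest among the cytokines given here with a standard error, which leaves out those given as bounds. Without that library its log2 fold change was 9.62. Il12a, the p35 subunit, had 108 counts over the DMSO+LPS libraries and none over the DMSO libraries, at least 79.5-fold higher. Il27 had 254 ± 10.8 CPM in DMSO+LPS cells, against 0.561 ± 0.240 CPM in DMSO cells, and its exons share 10.1% of their length with another gene. Ebi3, which pairs with Il27, had 245 CPM in DMSO+LPS cells, against 53 CPM in DMSO cells, and 23.4% of its exon length overlaps Gm16712 on the other strand, which also rose, with 86.3 CPM in DMSO+LPS cells, against 16.8 CPM in DMSO cells.

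Interferon beta (Ifnb1) was present at a low level after LPS. It had 7.37, 7.67 and 9.27 CPM in DMSO+LPS cells, against 0, 0, 0 and 0 CPM in DMSO cells, from 193 counts over the DMSO+LPS libraries and none over the DMSO libraries, at least 142-fold higher. The anti-inflammatory cytokine Il10 had 8.05, 6.6 and 7.75 CPM in DMSO+LPS cells, against 1.85, 1.52, 0.955 and 0.975 CPM in DMSO cells, a log2 fold change of 2.48 ± 0.31. All 3 DMSO+LPS libraries lay above the DMSO libraries, and the fold change was smaller than those of Il6 and Tnf. Tnfsf15 and Tnfsf9, members of the TNF superfamily, rose by 7.48 and 5.14. Il19 and Il33 had no counts in DMSO cells and were at least 30.2-fold and 23.6-fold higher. The growth factors Pdgfb and Vegfa fell, to 2.76 CPM in DMSO+LPS cells, against 27.8 CPM in DMSO cells for Pdgfb, and to 13.4 CPM in DMSO+LPS cells, against 74.8 CPM in DMSO cells for Vegfa. Csf2, with 17 counts in DMSO+LPS cells and 0 in DMSO cells, and Il23a, with 7 counts in DMSO+LPS cells and 1 in DMSO cells, did not pass the filter on low counts.

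**Figure D4:**
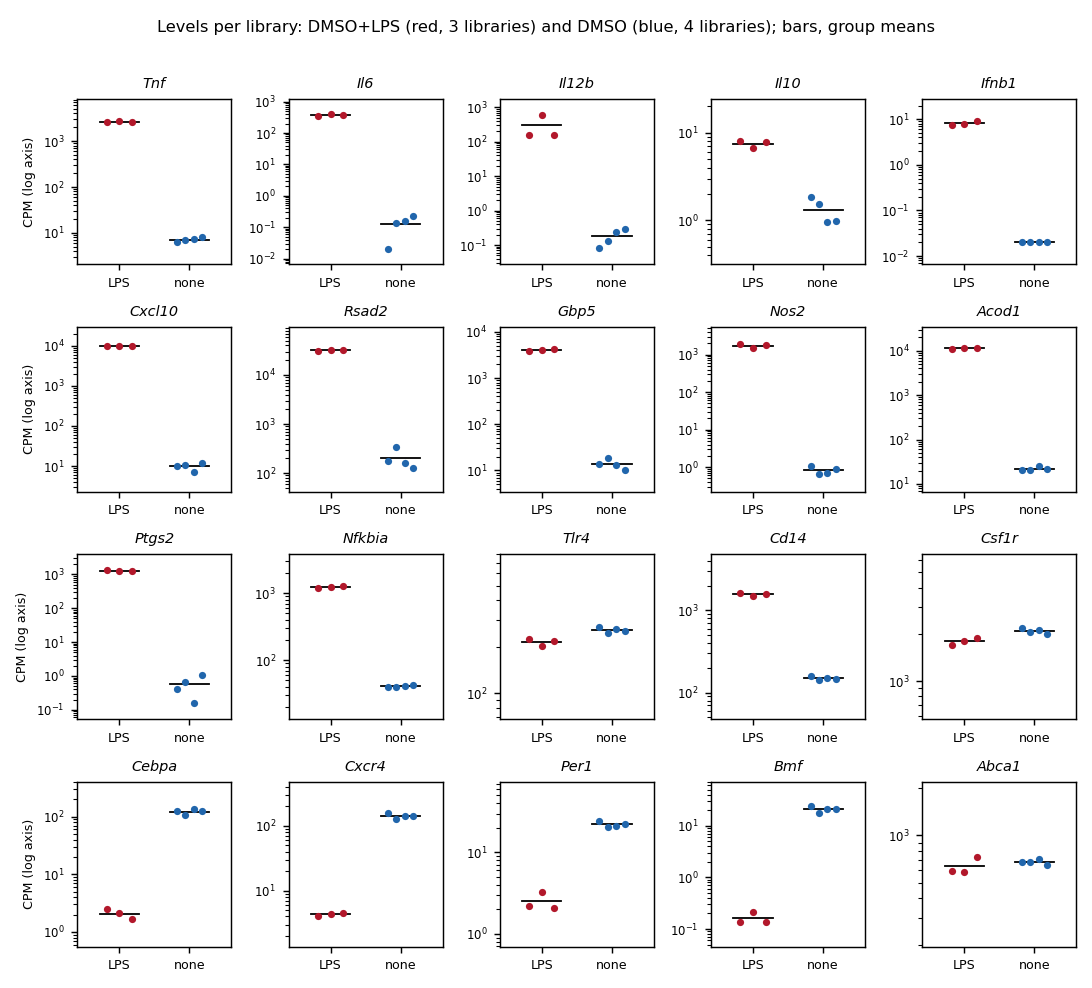
Level in CPM (log axis) of 20 genes in each library, with DMSO+LPS libraries left of DMSO libraries in each panel and libraries at 0 drawn at 0.02 CPM. For Il6, Tnf, Nfkbia and Rsad2 every DMSO+LPS library lies above every DMSO library.

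Of 23 measured CC and CXC chemokines, 21 rose, 19 beyond 2-fold, and 2 did not pass, with a median of 6.63, or 6.30 with genes at 0 in DMSO cells at their bound. The CXCR3 ligand genes Cxcl9, Cxcl10 and Cxcl11 led. Cxcl10 had 9991, 9865 and 9647 CPM in DMSO+LPS cells, against 10.3, 10.9, 6.93 and 12.2 CPM in DMSO cells, a log2 fold change of 9.92 ± 0.24 (edgeR adjusted p = 2.04e-19). Cxcl9 had 647 ± 43.5 CPM in DMSO+LPS cells, against 0.403 ± 0.225 CPM in DMSO cells, and Cxcl11 had 99.5 ± 3.21 CPM in DMSO+LPS cells, against 0.0917 ± 0.0705 CPM in DMSO cells, though 41.7% of the exon length of the Cxcl11 transcript is shared with another annotated gene. Cxcl11 was counted on a noncoding transcript, and the gene is annotated as a transcribed pseudogene, so that its level does not stand for a protein. The 3 genes lie side by side on chromosome 5. The neutrophil attractants Cxcl1 and Cxcl2 rose by 7.95 and 7.63, and Cxcl3 had 268 counts in DMSO+LPS cells and none in DMSO cells, at least 197-fold higher.

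The CC chemokines that attract monocytes and T cells rose as well. Ccl5 had 1569.9 ± 16.7 CPM in DMSO+LPS cells, against 5.16 ± 0.688 CPM in DMSO cells, and Ccl2, Ccl7 and Ccl12 had log2 fold changes of 6.63, 7.12 and 7.12. Ccl3 and Ccl4 were already present in DMSO cells, and Ccl3 had 2683 ± 65.1 CPM in DMSO+LPS cells, against 58.4 ± 3.52 CPM in DMSO cells. Ccl22 rose by 7.28, and Ccl17 had 60 counts in DMSO+LPS cells and none in DMSO cells, at least 44.2-fold higher. Cxcl14 and Ppbp did not pass the test, with 0.22 and 0.40, and Ccl6, abundant in both groups, rose by 0.20 ± 0.05 and, with Pf4, changes sign under library totals.

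Receptors for chemoattractants split. Of 16 measured, 10 rose and 4 fell, or 62.5% and 25% against 35.4% and 38.7% of all genes. Beyond 2-fold were 6 and 2, or 37.5% and 12.5% against 13.7% and 11.9% of all. The median was 0.78, and 2 of the 10 change sign under library totals. The formyl peptide receptors Fpr1 and Fpr2 rose by 6.24 ± 0.22 and 6.7 ± 0.28, and Ccrl2, which binds chemerin, had 849.7 ± 16.8 CPM in DMSO+LPS cells, against 13.1 ± 0.971 CPM in DMSO cells. Cxcr4, the receptor for CXCL12, fell, with 4.09, 4.37 and 4.57 CPM in DMSO+LPS cells, against 161, 126, 141 and 142 CPM in DMSO cells, a log2 fold change of -5.03 ± 0.16. Every DMSO library had many times the level of any DMSO+LPS library. Ccr2, the monocyte receptor for CCL2, had 12 CPM in DMSO+LPS cells, against 41.1 CPM in DMSO cells, and fell beyond 2-fold. Cx3cr1, the fractalkine receptor, had 1.91 ± 0.603 CPM in DMSO+LPS cells, against 3.07 ± 1.01 CPM in DMSO cells, and did not pass edgeR's test (adjusted p = 0.0542). It passed without DMSO replicate 2 (0.0257), without DMSO replicate 3 (0.0276) and without DMSO+LPS replicate 2 (0.0259), within a range of 0.000193 to 0.213 over all alternatives.

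Receptors for purines, lipids and metabolites also moved in both directions. Of 24 measured, 10 rose and 10 fell, 9 and 7 beyond 2-fold, where 35.4% of all genes rose and 38.7% fell, with a median of 0.15 (-0.58 under library totals, where P2rx4 changes sign). The adenosine receptor Adora2a had 96.2 ± 8.13 CPM in DMSO+LPS cells, against 0.0906 ± 0.0819 CPM in DMSO cells, with a log2 fold change of 9.83, or 10.54 without DMSO replicate 2. Hcar2, which binds hydroxy-carboxylic acids, had 60.5 ± 6.46 CPM in DMSO+LPS cells, against 1.08 ± 0.318 CPM in DMSO cells, and the lysophosphatidic acid receptor Lpar1 rose by 7.17. A second lysophosphatidic acid receptor, Lpar5, had 0.254 ± 0.140 CPM in DMSO+LPS cells, against 20.7 ± 1.64 CPM in DMSO cells, a log2 fold change of -6.3 ± 0.29. S1pr1, the sphingosine-1-phosphate receptor that guides cell exit from tissues, had 2.85 ± 1.38 CPM in DMSO+LPS cells, against 50.4 ± 3.29 CPM in DMSO cells. The oxysterol receptor Gpr183 and the ATP-gated channel P2rx7 fell beyond 2-fold, with log2 fold changes of -3.88 and -1.62. Cnr2, the peripheral cannabinoid receptor, had 0.615 ± 0.113 CPM in DMSO+LPS cells, against 54.5 ± 3.27 CPM in DMSO cells.

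Among 28 cytokine receptors, 19 rose and 6 fell, or 67.9% and 21.4% against 35.4% and 38.7% of all genes. Beyond 2-fold were 11 and 3, or 39.3% and 10.7% against 13.7% and 11.9% of all. The median was 0.94, and 3 of the 19 change sign under library totals. Cd40, the receptor for the T cell ligand CD154, had 1220.0 ± 40.4 CPM in DMSO+LPS cells, against 3.36 ± 0.442 CPM in DMSO cells, counted here on a transcript annotated as noncoding. Il15ra, which presents interleukin-15, rose by 5.6 ± 0.10, and Il15 itself had 486 CPM in DMSO+LPS cells, against 16.7 CPM in DMSO cells. Il6ra and Il6st, the chains of the interleukin-6 receptor, fell, with 7.53 CPM in DMSO+LPS cells, against 107 CPM in DMSO cells for Il6ra, and 108 CPM in DMSO+LPS cells, against 280.2 CPM in DMSO cells for Il6st. The ligand and its receptor chains therefore moved in opposite directions. Csf1r, the receptor for M-CSF and a defining macrophage gene, had 1713, 1816 and 1885 CPM in DMSO+LPS cells, against 2187, 2079.7, 2144 and 2027 CPM in DMSO cells. Every DMSO+LPS library lay below every DMSO library. Its log2 fold change of -0.23 ± 0.12 missed the threshold (edgeR adjusted p = 0.0972). It passed when the fit held the compared groups alone (0.000646), and under library totals it was -0.96 and passed (8.49e-08), in a range of 8.49e-08 to 0.433 over all alternatives. Of its exon length, 17.9% overlaps another gene.

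All 40 measured type I interferon-stimulated genes rose, 39 of them beyond 2-fold, with a median log2 fold change of 3.28, and 39 lay above 0 under library totals, all but Ifi27l2a. Rsad2 rose by 7.29 ± 0.28 and Cmpk2, its neighbour, which makes nucleotide triphosphates in mitochondria, by 7.42 ± 0.28. The IFIT proteins, which bind foreign RNA ends, rose together, with 7042 CPM in DMSO+LPS cells, against 63.4 CPM in DMSO cells for Ifit1, and 14089 CPM in DMSO+LPS cells, against 204 CPM in DMSO cells for Ifit2. Ifi205 had 898 ± 60.6 CPM in DMSO+LPS cells, against 1.63 ± 0.857 CPM in DMSO cells, and the GTPase gene Mx2 had 441 ± 7.89 CPM in DMSO+LPS cells, against 5.11 ± 2.65 CPM in DMSO cells, on a transcript annotated without a coding frame. The ubiquitin-like modifier Isg15 and its protease Usp18 rose by 5.41 and 4.61. The transcription factor Stat2, which carries the interferon signal, had 1119 CPM in DMSO+LPS cells, against 197 CPM in DMSO cells.

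Unstimulated libraries differed among themselves in this group of genes. DMSO replicate 2 had the highest level of the 4 DMSO libraries for 37 of the 40 interferon-stimulated genes and for all 13 guanylate-binding and immunity-related GTPases. Its median deviation from the DMSO mean was 0.50 and 0.52 on the log2 scale in those lists, and that of DMSO replicate 4 was -0.47 and -0.44. Ifit1 shows the pattern, with 6925, 7265 and 6934 CPM in DMSO+LPS cells, against 56.1, 120.3, 45.6 and 31.6 CPM in DMSO cells. The DMSO libraries spread widely, and all of them lay below the DMSO+LPS libraries. In the NF-kB list the median deviations of the DMSO libraries lay between -0.04 and 0.02.

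All 13 measured guanylate-binding proteins and immunity-related GTPases, which attack vacuoles of intracellular microbes, rose beyond 2-fold, with a median of 5.66. Gbp5 had 3821, 4011 and 4373 CPM in DMSO+LPS cells, against 13.7, 18.9, 13.1 and 10.4 CPM in DMSO cells, a log2 fold change of 8.18 ± 0.22. Every DMSO+LPS library lay far above every DMSO library. Gbp4 had 614 ± 66.3 CPM in DMSO+LPS cells, against 3.6 ± 1.87 CPM in DMSO cells, and Iigp1 and Irgm1 rose by 7.34 and 4.02. These genes have close paralogs, among which reads of 50 bases can be split, so that values of single members are uncertain.

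Interferon regulatory factors rose except for a pair. Of 8 measured, 6 rose, all beyond 2-fold, and 2 fell. Irf1 had 2412 ± 66.5 CPM in DMSO+LPS cells, against 72.2 ± 7.87 CPM in DMSO cells, and Irf7, which amplifies interferon transcription, had 996 CPM in DMSO+LPS cells, against 67.7 CPM in DMSO cells. Irf8 rose by 2.61 ± 0.06. Irf3, which is activated by phosphorylation, had 27 ± 1.82 CPM in DMSO+LPS cells, against 33.7 ± 1.21 CPM in DMSO cells, a log2 fold change of -0.32 ± 0.08. Irf4 had 1.08 ± 0.215 CPM in DMSO+LPS cells, against 6.45 ± 0.507 CPM in DMSO cells, a log2 fold change of -2.56 ± 0.21.

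The myeloid transcription factors rose more often than all genes did, and fell about as often. Of 35 measured, 20 rose and 14 fell, or 57.1% and 40%, against 35.4% and 38.7% of all genes, with a median of 1.28. Beyond 2-fold 18 rose and 8 fell, or 51.4% and 22.9%, against 13.7% and 11.9% of all. Members of the C/EBP family moved in opposite directions. Cebpa, which drives myeloid differentiation, had 2.46, 2.13 and 1.66 CPM in DMSO+LPS cells, against 125, 108, 135 and 123 CPM in DMSO cells, a log2 fold change of -5.87 ± 0.12 (edgeR adjusted p = 1.33e-20). Cebpb, the member induced in acute inflammation, had 91.5, 85.7 and 94.9 CPM in DMSO+LPS cells, against 33, 31.1, 30.3 and 33.7 CPM in DMSO cells, a log2 fold change of 1.5 ± 0.11, and Cebpd rose by 3.75 ± 0.12. In both cases the groups did not overlap.

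Other factors moved in both directions. The lysosomal regulator Tfeb had 3.74 CPM in DMSO+LPS cells, against 38.7 CPM in DMSO cells, and Mef2d had 18.8 ± 2.14 CPM in DMSO+LPS cells, against 121 ± 6.79 CPM in DMSO cells, and both fell. Klf2, which restrains inflammatory genes, had 6.65 ± 1.82 CPM in DMSO+LPS cells, against 20.3 ± 2.25 CPM in DMSO cells, a log2 fold change of -1.6 ± 0.17, while Klf4 rose by 1.81 ± 0.13. Batf2, an interferon-inducible partner of AP-1 and IRF proteins, had 159 ± 12.3 CPM in DMSO+LPS cells, against 3.33 ± 0.482 CPM in DMSO cells. Mitf, a relative of Tfeb, had 332 ± 16.2 CPM in DMSO+LPS cells, against 70.1 ± 2.49 CPM in DMSO cells and rose. Spi1, which encodes PU.1, the factor that specifies the lineage, rose by 1.54 ± 0.07.

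Nuclear receptors mostly fell. Of 19 measured, 12 fell and 5 rose, or 63.2% and 26.3% against 38.7% and 35.4% of all genes. Beyond 2-fold were 8 and 4, or 42.1% and 21.1% against 11.9% and 13.7% of all. The median was -0.91, and Nr1h2, which rose, changes sign under library totals. The retinoid X receptor Rxra, the shared partner of several of them, had 8.69 CPM in DMSO+LPS cells, against 59.3 CPM in DMSO cells, and Ppard, a fatty acid sensor, had 7.26 ± 1.27 CPM in DMSO+LPS cells, against 50.2 ± 1.51 CPM in DMSO cells. Pparg, the regulator of alternative activation and lipid uptake, had a log2 fold change of -2.31 ± 0.14. Nr4a3 rose, with 54.3, 55.6 and 60.6 CPM in DMSO+LPS cells, against 0.168, 0.0663, 0.0796 and 0.150 CPM in DMSO cells, while its relative Nr4a1 had 0.486 CPM in DMSO+LPS cells, against 1.86 CPM in DMSO cells and fell. The glucocorticoid receptor Nr3c1 had 389.6 ± 25.3 CPM in DMSO+LPS cells, against 149 ± 4.98 CPM in DMSO cells and Nr1h3, which encodes LXR-alpha, had 31.6 ± 2.0 CPM in DMSO+LPS cells, against 8.31 ± 1.13 CPM in DMSO cells, and both rose beyond 2-fold.

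Most clock genes fell. Of 13 measured, 10 fell and 3 rose, or 76.9% and 23.1% against 38.7% and 35.4% of all genes. Beyond 2-fold 7 fell, or 53.8% against 11.9% of all, and the median was -1.27. Per1, a repressor in the core loop, had 2.18, 3.3 and 2.08 CPM in DMSO+LPS cells, against 24.6, 20.2, 21.3 and 22.1 CPM in DMSO cells, a log2 fold change of -3.09 ± 0.13, with no overlap between groups. Per2 had 3 counts over the DMSO+LPS libraries and 80 over the DMSO libraries, a ratio of 0.0828 with an exact 95% counting interval of 0.0167 to 0.251. The output factors Dbp and Tef had log2 fold changes of -3.09 and -2.74, and Nr1d1 (Rev-erb alpha), a nuclear receptor of the loop, -3.25. Arntl, the activator Bmal1, had -1.27 ± 0.13. Of the 3 that rose, Cry1 had 0.80 ± 0.12 (0.07 and not passing under library totals), while Clock and Csnk1d change sign under library totals, Csnk1d having 0.56 ± 0.05 under TMM and -0.17 there.

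**Figure D5:**
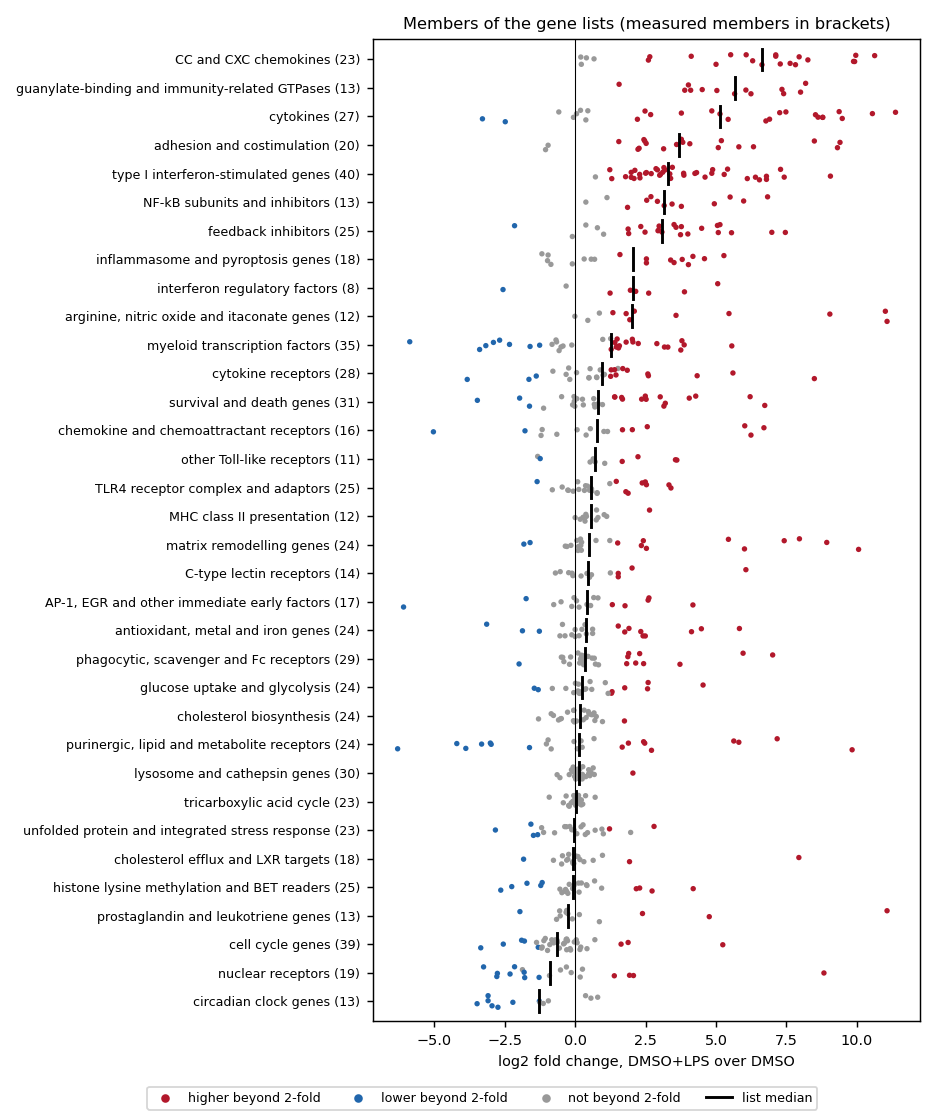
Log2 fold change of DMSO+LPS over DMSO cells (horizontal axis) of every measured member of the gene lists, with 1 point per gene and 1 row per list. All members of the interferon-stimulated, guanylate-binding and NF-kB lists lie above 0, while clock genes and nuclear receptors have medians of -1.27 and -0.91.

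Enzymes that make antimicrobial and signalling metabolites showed some of the highest changes. Of 12 measured genes of arginine, nitric oxide and itaconate metabolism and the oxidase, 11 rose, 9 beyond 2-fold, and 1 did not pass, with a median of 2.02, and Cyba changes sign under library totals. Nos2, the inducible nitric oxide synthase, had 1879, 1492 and 1859.6 CPM in DMSO+LPS cells, against 1.09, 0.663, 0.716 and 0.900 CPM in DMSO cells, a log2 fold change of 11.01 ± 0.22. Acod1 had 11236, 11727 and 11745 CPM in DMSO+LPS cells, against 20.1, 20.3, 25.6 and 21.8 CPM in DMSO cells, a log2 fold change of 9.04 ± 0.20 (edgeR adjusted p = 2.71e-20). Both genes were low in every DMSO library. Slc7a2, which imports arginine, had 149 CPM in DMSO+LPS cells, against 3.36 CPM in DMSO cells, and Gch1, which supplies the cofactor of nitric oxide synthase, rose by 3.58 ± 0.11. Arg1 did not pass the filter on low counts, with 0 counts in DMSO+LPS cells and 2 in DMSO cells, and Arg2 rose by 1.81 ± 0.30.

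In prostaglandin synthesis the inducible steps rose and others fell. Ptgs2, the inducible cyclooxygenase, had 1321, 1292 and 1232 CPM in DMSO+LPS cells, against 0.419, 0.663, 0.159 and 1.05 CPM in DMSO cells, a log2 fold change of 11.07 ± 0.22. Ptges, the inducible prostaglandin E synthase, had 17.7 CPM in DMSO+LPS cells, against 0.654 CPM in DMSO cells, and the phospholipase Pla2g4a had 83.1 ± 2.18 CPM in DMSO+LPS cells, against 15.8 ± 0.429 CPM in DMSO cells. The constitutive Ptgs1, the prostaglandin-degrading Hpgd and the leukotriene hydrolase Lta4h fell, with log2 fold changes of -0.53 ± 0.17, -1.96 ± 0.48 and -0.32 ± 0.06. Over the 13 measured genes, 4 rose and 6 fell, or 30.8% and 46.2% against 35.4% and 38.7% of all genes, 3 and 1 beyond 2-fold, with a median of -0.26.

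Central carbon metabolism moved less. Of 24 measured genes of glucose uptake and glycolysis, 13 rose and 4 fell, or 54.2% and 16.7% against 35.4% and 38.7% of all genes. Beyond 2-fold were 6 and 2, or 25% and 8.33% against 13.7% and 11.9% of all. The median was 0.26 (-0.47 under library totals, where 5 of the 13 change sign). Changes beyond 2-fold were found in entry and control steps: the lysosomal hexose transporter Slc2a6 had 845 ± 16.6 CPM in DMSO+LPS cells, against 36.3 ± 1.51 CPM in DMSO cells, the activator of phosphofructokinase Pfkfb3 had 172 ± 4.75 CPM in DMSO+LPS cells, against 28.7 ± 1.61 CPM in DMSO cells, and Hk2 and Slc2a1 rose by 2.57 and 1.29. The transporter Slc2a3 and Pfkfb4 fell, with log2 fold changes of -1.45 ± 0.14 and -1.31 ± 0.09. Gapdh had 1.09, 1.7 and 0.692 CPM in DMSO+LPS cells, against 1.09, 0.862, 1.11 and 1.2 CPM in DMSO cells, values that are uncertain because the genome holds many near-identical copies of this gene. In the tricarboxylic acid cycle, 6 of 23 genes rose and 5 fell, or 26.1% and 21.7%, against 35.4% and 38.7% of all genes. The median was 0.02 (-0.71 under library totals, where all 6 change sign). The fold changes lay between -0.92 for Idh1 and 0.71 for Dlst on the log2 scale. Dlst and Cs rose by 0.71 ± 0.05 and 0.37 ± 0.06, and under library totals had -0.02 and -0.36.

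Sterol genes showed a limited response. Of 24 measured genes of cholesterol synthesis and uptake, 8 rose and 5 fell, or 33.3% and 20.8%, against 35.4% and 38.7% of all genes. Of those that rose, 1 went beyond 2-fold, and the median was 0.17 (-0.56 under library totals, where 5 of the 8 change sign). The synthesis enzymes Dhcr7 and Mvd fell, with log2 fold changes of -1.3 ± 0.17 and -0.77 ± 0.14. Of 18 genes of cholesterol efflux and LXR targets, 5 rose and 5 fell, 27.8% each against 35.4% and 38.7% of all genes, 2 and 1 beyond 2-fold, and Abcg1 and Npc2, which rose, change sign under library totals. Ch25h, which makes an oxysterol, had 41.9, 40.6 and 37.2 CPM in DMSO+LPS cells, against 0.0839, 0.0663, 0.159 and 0.300 CPM in DMSO cells, a log2 fold change of 7.94 ± 0.28. The cholesterol exporter Abca1 had 595, 587 and 732 CPM in DMSO+LPS cells, against 680.5, 674, 709 and 647 CPM in DMSO cells, a difference of -0.09 ± 0.12 that did not pass (edgeR adjusted p = 0.504), and that was -0.82 and passed under library totals. Apoe had -0.08 and did not pass.

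Phagocytic, scavenger and Fc receptors rose in 20 and fell in 5 of 29 measured genes, or 69% and 17.2% against 35.4% and 38.7% of all. Beyond 2-fold were 9 and 1, or 31% and 3.45% against 13.7% and 11.9% of all. The median was 0.35 (-0.38 under library totals, where 10 of the 20 change sign). Itgav, an integrin subunit that helps take up apoptotic cells, had 832 ± 75.7 CPM in DMSO+LPS cells, against 63.3 ± 2.71 CPM in DMSO cells, and the activating Fc receptor Fcgr4 had 299 ± 17.9 CPM in DMSO+LPS cells, against 67.5 ± 6.88 CPM in DMSO cells. Olr1, a lectin-like receptor for oxidised lipoprotein, had 207 counts over the DMSO+LPS libraries and 3 over the DMSO libraries, a ratio of 152 with an exact 95% counting interval of 51.4 to 745. The haemoglobin scavenger Cd163 had 4.79 ± 0.740 CPM in DMSO+LPS cells, against 18.8 ± 0.203 CPM in DMSO cells and fell. Mertk, a receptor for apoptotic cells, had 215 ± 14.5 CPM in DMSO+LPS cells, against 129.9 ± 4.12 CPM in DMSO cells, a log2 fold change of 0.72 ± 0.11, or -0.01 under library totals. Among 14 C-type lectin receptors, 8 rose and 2 fell, or 57.1% and 14.3%. Beyond 2-fold 4 rose, or 28.6%, and the median was 0.46 (-0.27 under library totals, where 3 of the 8 change sign). Clec4e, the receptor Mincle for mycobacterial glycolipid, had 2891 ± 167 CPM in DMSO+LPS cells, against 43.2 ± 4.38 CPM in DMSO cells, and Clec7a, the beta-glucan receptor dectin, had 109 ± 10.5 CPM in DMSO+LPS cells, against 178 ± 9.1 CPM in DMSO cells and fell.

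Most genes for contact with other cells rose. Of 20 measured adhesion and costimulation genes, 18 rose, all beyond 2-fold, and 2 fell, with a median of 3.68. Vcam1, which binds leukocyte integrins, had 92.1, 101 and 97.7 CPM in DMSO+LPS cells, against 0, 0.133, 0.318 and 0.0750 CPM in DMSO cells, with a log2 fold change of 9.4, or 10.14 without DMSO replicate 3. Icam1, the ligand of leukocyte integrins, had 3773 ± 156 CPM in DMSO+LPS cells, against 103 ± 3.08 CPM in DMSO cells, and 20.2% of its exon length overlaps another gene. The costimulators Cd86 and Cd80 rose by 2.27 and 1.55, and the inhibitory ligand Cd274 (PD-L1) by 5.08. Vsir and Havcr2, which code for inhibitory receptors, fell, with log2 fold changes of -1.05 ± 0.09 and -0.96 ± 0.18. MHC class II genes changed less, with a median of 0.57 (-0.15 under library totals). Of 12 measured, 8 rose, or 66.7% against 35.4% of all genes, and 4 did not pass, and 2 of the 8 change sign under library totals. Beyond 2-fold 1 rose, or 8.33% against 13.7% of all. That 1 gene was the master regulator Ciita, with 30.9 ± 2.89 CPM in DMSO+LPS cells, against 4.99 ± 1.1 CPM in DMSO cells.

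Inflammasome and cell death genes were mostly higher. Of 18 inflammasome and pyroptosis genes, 13 rose and 4 fell, or 72.2% and 22.2% against 35.4% and 38.7% of all genes. Beyond 2-fold 10 rose, or 55.6% against 13.7% of all. The median was 2.06, and 3 of the 13 change sign under library totals. Nlrp3, the sensor of membrane damage, had 811 ± 50.9 CPM in DMSO+LPS cells, against 49.9 ± 3.45 CPM in DMSO cells, and Ripk2, the kinase downstream of the NOD receptors, had 628 ± 24.6 CPM in DMSO+LPS cells, against 16.1 ± 0.739 CPM in DMSO cells. Casp4, the mouse caspase-11 gene that senses cytosolic LPS, and Gsdmd, which forms the pyroptotic pore, rose by 3.39 and 1.59. Nlrc4, the sensor partner of the NAIP proteins, had a log2 fold change of -0.96 ± 0.11. Of 31 survival and death genes, 20 rose and 4 fell, or 64.5% and 12.9%, and 4 of the 20 change sign under library totals. Beyond 2-fold were 14 and 3, or 45.2% and 9.68% against 13.7% and 11.9% of all genes. The caspase-8 inhibitor Cflar had 2299 ± 119 CPM in DMSO+LPS cells, against 118 ± 7.58 CPM in DMSO cells, the inhibitor of apoptosis gene Birc3 rose by 3.2, and Bcl2a1b had 310.4 ± 12.9 CPM in DMSO+LPS cells, against 34.8 ± 0.820 CPM in DMSO cells, with 49.1% of its exon length shared with another gene of its family. Bmf, a pro-apoptotic BH3-only gene outside the list, had 0.136, 0.213 and 0.138 CPM in DMSO+LPS cells, against 23.7, 17.8, 20.8 and 20.8 CPM in DMSO cells, the lowest log2 fold change among genes with a mean of 20 CPM or more in DMSO cells, -6.86 ± 0.37. The growth arrest gene Gadd45a and the initiator caspase Casp9 fell, with log2 fold changes of -3.47 ± 0.12 and -1.97 ± 0.08.

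Stress and iron genes moved in both directions. The mitochondrial superoxide dismutase Sod2 had 1127, 1162 and 1229 CPM in DMSO+LPS cells, against 49.6, 52.4, 51.9 and 56.8 CPM in DMSO cells, a log2 fold change of 4.48 ± 0.09. The zinc importer Slc39a14 had 93.7 ± 5.69 CPM in DMSO+LPS cells, against 17.6 ± 0.855 CPM in DMSO cells. The iron exporter ferroportin (Slc40a1) had 56.5 ± 7.58 CPM in DMSO+LPS cells, against 500.0 ± 21.8 CPM in DMSO cells, a log2 fold change of -3.14 ± 0.12, and Hmox1, which breaks down haem, had 141 ± 10.9 CPM in DMSO+LPS cells, against 338 ± 17 CPM in DMSO cells and fell. Over the 24 measured antioxidant, metal and iron genes, 13 rose and 6 fell, or 54.2% and 25% against 35.4% and 38.7% of all genes. Beyond 2-fold were 9 and 3, or 37.5% and 12.5% against 13.7% and 11.9% of all. The median was 0.38 (-0.35 under library totals, where 4 of the 13 change sign). In the unfolded protein and integrated stress response, 10 of 23 genes rose and 9 fell, 43.5% and 39.1%, against 35.4% and 38.7% of all genes, 2 and 4 went beyond 2-fold, with a median of -0.04 (0.01 with DESeq2-type size factors), and 5 of the 10 change sign under library totals. Ppp1r15a, which reverses the translation block, had 202 ± 20.8 CPM in DMSO+LPS cells, against 29.1 ± 1.74 CPM in DMSO cells, and the kinase gene Eif2ak3 (PERK) had 7.09 ± 1.7 CPM in DMSO+LPS cells, against 50.5 ± 2.87 CPM in DMSO cells.

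Secreted regulators of matrix included some of the highest fold changes. Serpinb2 had 406 counts over the DMSO+LPS libraries and 3 over the DMSO libraries, a ratio of 299 with a 95% counting interval of 102 to 1455. The plasminogen activator gene Plau (urokinase) had 23.3 ± 2.33 CPM in DMSO+LPS cells, against 82.6 ± 9.53 CPM in DMSO cells and fell. Of 24 matrix genes, 12 rose and 3 fell, or 50% and 12.5% against 35.4% and 38.7% of all genes. Beyond 2-fold were 10 and 2, or 41.7% and 8.33% against 13.7% and 11.9% of all. The median was 0.49 (-0.24 under library totals). Edn1, which encodes the vasoconstrictor endothelin, had 3497 counts over the DMSO+LPS libraries and 3 over the DMSO libraries, a ratio of 2575 with an interval of 880.2 to 12490.3, and its fitted log2 fold change was 11.07, or 11.96 without DMSO replicate 4. Lysosome and cathepsin genes changed little, with a median of 0.14 (-0.59 under library totals). Of 30, 16 rose and 3 fell, or 53.3% and 10% against 35.4% and 38.7% of all genes. Under library totals 15 of the 16 change sign. Beyond 2-fold 1 rose, or 3.33% against 13.7% of all. The exception was Ctsc, which activates serine proteases, with 778 ± 50.0 CPM in DMSO+LPS cells, against 188 ± 10.4 CPM in DMSO cells.

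Cell cycle genes fell more often than they rose. Of 39 measured, 21 fell and 5 rose, or 53.8% and 12.8%, against 38.7% and 35.4% of all genes. Beyond 2-fold 5 fell and 3 rose, or 12.8% and 7.69%, against 11.9% and 13.7% of all, with a median of -0.63, and Cdc25a and Pcna, which rose, change sign under library totals. The S-phase activator E2f2 had 2.28 ± 0.146 CPM in DMSO+LPS cells, against 23.5 ± 2.32 CPM in DMSO cells, and the phosphatase gene Cdc25b had 27 ± 3.67 CPM in DMSO+LPS cells, against 101 ± 1.64 CPM in DMSO cells. The replication helicase genes Mcm2, Mcm3, Mcm4 and Mcm7 fell, with log2 fold changes of -1.11, -1.19, -0.64 and -0.83, while Mki67 and Top2a did not pass, with 0.07 and -0.27. Cyclin D2 (Ccnd2) had 611 ± 52 CPM in DMSO+LPS cells, against 16.1 ± 1.66 CPM in DMSO cells and rose. In bulk libraries fewer cells of a type and less RNA per cell cannot be told apart.

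Chromatin genes were included because the study concerns DOT1L. Dot1l itself had 69.8, 64.6 and 69.7 CPM in DMSO+LPS cells, against 64.2, 57.5, 56.6 and 55.7 CPM in DMSO cells, a log2 fold change of 0.22 ± 0.14 that did not pass (edgeR adjusted p = 0.166), that was -0.51 under library totals and that passed when the fit held the compared groups alone (0.00403). Of 25 genes of histone lysine methylation, elongation and BET readers, 9 rose and 11 fell, 36% and 44%, against 35.4% and 38.7% of all genes, 4 and 5 went beyond 2-fold, and 4 of the 9 change sign under library totals. The BET reader Brd2 had 1080.2 ± 13.3 CPM in DMSO+LPS cells, against 222 ± 7.41 CPM in DMSO cells, and Setdb2, an interferon-inducible relative of methyltransferases, had 284 ± 5.64 CPM in DMSO+LPS cells, against 15.5 ± 1.92 CPM in DMSO cells. The demethylase Kdm5b had 5.04 ± 0.440 CPM in DMSO+LPS cells, against 31.4 ± 2.21 CPM in DMSO cells, and the elongation factor Ell had 8.5 ± 0.703 CPM in DMSO+LPS cells, against 40.6 ± 3.73 CPM in DMSO cells, while its relative Ell2 rose by 2.73.

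Further genes with the lowest log2 fold changes included Fam214a with 0.452 CPM in DMSO+LPS cells, against 47.9 CPM in DMSO cells, the zinc finger gene Zfp395 with 0.605 CPM in DMSO+LPS cells, against 52.1 CPM in DMSO cells and Cd300lb, an activating receptor of the CD300 family, with 4.4 CPM in DMSO+LPS cells, against 215 CPM in DMSO cells. Sesn1, a sestrin that restrains the growth regulator mTORC1, had 5.73, 8.2 and 7.33 CPM in DMSO+LPS cells, against 390.2, 428, 430.1 and 459 CPM in DMSO cells, a log2 fold change of -5.9 ± 0.12. The groups were separated by a wide gap. Lpin1, a phosphatidate phosphatase, had 2.35 ± 0.109 CPM in DMSO+LPS cells, against 93.1 ± 4.97 CPM in DMSO cells, and Irf2bp2, a partner of IRF2 with 20.5% of its exon length shared with another gene, had 5.87 ± 1.19 CPM in DMSO+LPS cells, against 201 ± 9.42 CPM in DMSO cells.

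Noncoding transcripts also rose and fell. Of 400 measured transcripts annotated as long noncoding RNA, 84 rose and 156 fell, which is 21% and 39%, against 35.4% and 38.7% of all genes. Beyond 2-fold were 48 and 64, or 12% and 16%, against 13.7% and 11.9% of all, with a median of -0.47, and 12 of the 84 change sign under library totals. AW112010, an interferon-inducible transcript, had 1259, 1304 and 1393 CPM in DMSO+LPS cells, against 12, 11.9, 12.8 and 10.5 CPM in DMSO cells, a log2 fold change of 6.8 ± 0.14. Mir155hg, the host transcript of miR-155, a microRNA that acts on many immune mRNAs, had 67.2, 56.3 and 64.6 CPM in DMSO+LPS cells, against 0, 0.133, 0.398 and 0 CPM in DMSO cells. It was at or near 0 in every DMSO library. Both mature arms are shown to identify the microRNA, from RefSeq on GRCm38.p6 (chr16:84714143-84714165 and chr16:84714182-84714202, plus strand), with the seed, bases 2 to 8, in capitals. Mature microRNAs were not measured, only the host transcript.
mmu-miR-155-5p: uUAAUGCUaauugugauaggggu
mmu-miR-155-3p: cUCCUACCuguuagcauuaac

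The response was also compared with that of cells differentiated with SGC0946, 3 with LPS and 4 without. By edgeR's test of the difference, 0 genes had a larger and 1 a smaller LPS change in DMSO than in SGC0946 cells, 0.00832% of those tested, with 835 genes, or 6.95%, at an unadjusted p below 0.05. DESeq2 gave 21 larger and 13 smaller, limma-voom 0 and 1, and edgeR with the mouse as a block, since replicate numbers are mice, 3 and 3. Without SGC0946+LPS replicate 2 there were 6 and 5. In simulated counts edgeR's test of the difference gave 9 false calls. The 1 gene was Lcn2, the iron-siderophore binding protein lipocalin, whose log2 LPS change was 2.49 in DMSO cells and 5.38 in SGC0946 cells, a difference of -2.89 ± 0.34 (adjusted p = 0.000395). Lcn2 had 16.9, 17.8 and 19 CPM in DMSO+LPS cells, against 2.18, 3.12, 3.66 and 3.68 CPM in DMSO cells, while the SGC0946+LPS libraries had 8.91, 13.6 and 11.3 CPM and the SGC0946 libraries 0.174, 0.298, 0.181 and 0.356 CPM. The DMSO libraries lay above the SGC0946 libraries both with and without LPS, and on the log2 scale the gap was wider without it. The SGC0946 levels without LPS rest on few counts, so that the size of the change in SGC0946 cells is uncertain. Lcn2 is also a member of the list of neutrophil markers.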

How the data were processed

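RNA of bone marrow-derived macrophages (700 ng per library) was sequenced single-end at 50 bases from mRNA libraries, per the labels' protocols. Per the submitters' processing notes, STAR 2.5.2b and SAMtools 1.3.1 and the build mm10 were used. Which program counted the reads, on which annotation and with or without strand is not given in the sources used here. Raw counts and RPKM were deposited by the authors for 35745 RefSeq transcripts in all 20 libraries. The deposited RPKM followed from the counts within a relative deviation of 4.7e-05, up to a factor per library between 0.909 and 1.032.

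The transcript with the highest total count stood for each symbol and kept 57.3% of the counts, as 6035 symbols have several transcripts and a read can be counted for more than 1. Transcripts with no symbol (305, holding 1.17% of counts) were left out. Counts were tested in edgeR 4.0.16 (R 4.3.3) with TMM scaling, the default filter at a count minimum of 10, and a quasi-likelihood fit on all 20 libraries with 1 coefficient per group, so that the groups share the estimate of spread (biological coefficient of variation 8.87%). Adjusted p-values are Benjamini-Hochberg values over 12013 genes, with 0.05 as the threshold, and the 2-fold test is glmTreat. Standard errors were taken from the log2 fold change and its F value. They can understate the counting error of genes near 0 in 1 group. Edn1, for example, had 0.22 on the log2 scale beside an exact interval of 880.2 to 12490.3 for its ratio. Changes per mouse used log2 of CPM plus 0.5. In simulated counts with 200 changed genes, as many higher as lower, the fit recovered 86% of 2-fold and 96% of 4-fold changes with 6 false calls among 11842 genes. The test of the difference of responses gave 9 false calls there. In the data 74.1% of genes passed, so that the simulation does not test the scaling under such a broad response. DESeq2 1.42.0 and limma-voom (limma 3.58.1) were alternatives, with other scalings, filters, transcripts, depths and left-out libraries.

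Replicate numbers come from the M number in the titles, a mouse in the deposited sample table. Deviations of same-numbered DMSO+LPS and DMSO libraries correlated at 0.67, 0.35 and 0.36 across genes, and those of unlike numbers at -0.45 to 0.15. Deviations within a group sum to 0, which pushes unlike numbers below 0, so that the pairing rests on the labels. The main fit does not use the pairing, and the mouse as a block is an alternative. Replicates differed beyond sampling noise, with a chi-square of 3.09 to 6.07 per gene, and each was counted as a sample. Intervals on single ratios are exact 95% intervals for counting error only, as bounds against 0 counts are, which take 3 counts over the group as the floor.

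The lists, the gene families and the choice of libraries were made with earlier results of these data known. Genes are named by a rule: the 12 highest and 12 lowest fold changes beyond 2-fold above a level of 50 CPM in DMSO+LPS or 20 CPM in DMSO cells, the 8 largest gains and 4 largest losses in CPM, up to 2 members per direction of each list or family by p, a preset panel, and the 3 leading genes per direction of the difference in response. Other list members given as examples were chosen after their values were seen. Some items the rule names are not reported here. Exons of 15 of the 197 remaining genes share 10% or more of their length with another gene.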

Additional observations from a re-analysis of the deposited data

Results flagged for a closer look

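Among 197 genes named by the rule, 10, or 5.08%, had 1 DMSO library that stood apart from the other three by Dixon's test at 95%, and chance alone flags about 1 in 20 groups. Havcr2 had 48.9 CPM in DMSO replicate 2, against 33.2 to 34.8 CPM in the others, and Ly96 had 15.6 CPM there, against 12 to 12.6 CPM. In DMSO replicate 4, Txnip was low at 882 CPM, against 967 to 975 CPM in the others, Fcgr4 was low at 57.3 CPM, against 69.9 to 72.1 CPM, and Snhg20 was high at 5.25 CPM, against 4.03 to 4.14 CPM. In DMSO replicate 1, Mitf was high at 73.8 CPM, Dlst at 107 CPM and Zfp36l2 at 287 CPM, and Cflar was low at 107 CPM. Adamts4 had 0.637 CPM in DMSO replicate 3. For each of the 10 genes the DMSO+LPS libraries lay wholly on 1 side of all DMSO libraries.

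Lcn2 had an LPS change that differed between inhibitor backgrounds, by -2.89 on the log2 scale, DMSO minus SGC0946, in edgeR's test of the difference.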

How the results depend on the processing

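The counts of genes that rose, fell or went beyond 2-fold moved by less than 1.5 times under all alternatives but scaling by library totals, where 1980 rose, 8674 fell, 1008 rose beyond 2-fold and 3758 fell beyond 2-fold. That scaling has no correction for the larger share of counts in induced genes, and shifts the median of all genes by -0.73. The count that fell beyond 2-fold depended on the tool, with 1006 by DESeq2 and 1113 by limma-voom, against 1431 in the main fit. For genes that rose beyond 2-fold these counts were 1575 and 1570, against 1648. With 1 library left out, 4055 to 4177 genes rose, 4372 to 4552 fell, and 1600 to 1649 and 1312 to 1405 went beyond 2-fold. For the difference between the DMSO and SGC0946 responses, larger and smaller changes numbered 21 and 13 with DESeq2, 7 and 4 with no filter on low counts, and 1 and 1 at equal depth. Leaving out 1 library gave 0 to 6 larger and 1 to 5 smaller. With the mouse as a replicate block these numbers were 3 and 3, the count of genes that rose was 4297 and that of genes that fell 4702. Among the 197 named genes the block changed 1 call, that of Ndufs7 (-0.20, adjusted p = 0.0427 without and 0.053 with the block). The cause of these shifts was not tested.

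Under library totals, 10 named genes changed sign: Csnk1d (-0.17), Dlst (-0.02), Cs (-0.36), Scap (-0.10), Sel1l (-0.02), Lamp2 (-0.05), Rps24 (-0.29), Ndufs4 (-0.21), Mertk (-0.01) and Dot1l (-0.51). Ndufv3 changed sign with the transcript of highest RPKM (0.08). Under library totals the medians of 16 lists changed sign: TLR4 complex (-0.15), other Toll-like receptors (-0.02), immediate early factors (-0.31), purinergic and lipid receptors (-0.58), glycolysis (-0.47), tricarboxylic acid cycle (-0.71), cholesterol biosynthesis (-0.56), phagocytic receptors (-0.38), C-type lectins (-0.27), MHC class II (-0.15), antioxidant and iron genes (-0.35), matrix genes (-0.24), lysosome (-0.59), ribosomal proteins (-0.45), NADH dehydrogenase (-0.55) and proteasome (-0.25). Of the comparisons of single genes with their alternatives, 3694 kept direction and call, 23 lost and 10 gained a call, and 11 changed sign. At equal depth, 4100 genes rose and 4497 fell. With a count minimum of 50 in place of 10, 10258 genes were tested, of which 3802 rose and 4212 fell.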

Other observations

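Gene families defined by name showed directions of their own. Of 325 measured genes whose symbols begin with Zfp, most of them zinc finger transcription factors, 222 fell and 40 rose, 88 and 16 beyond 2-fold, where 38.7% of all genes fell and 35.4% rose, with a median log2 fold change of -0.77, and 15 of the 40 change sign under library totals. The decay factors Zfp36 and Zfp36l2, which are no transcription factors, moved in opposite directions, with 709.7 CPM in DMSO+LPS cells, against 83.9 CPM in DMSO cells for Zfp36, and 38.1 CPM in DMSO+LPS cells, against 263 CPM in DMSO cells for Zfp36l2. Of 29 kinesin motor genes, 19 fell and 8 rose, or 65.5% and 27.6%. Beyond 2-fold were 11 and 3, or 37.9% and 10.3% against 11.9% and 13.7% of all genes. The median was -1.15, and 3 of the 8 change sign under library totals. Kif5b, the ubiquitous conventional kinesin, had 434 ± 21.7 CPM in DMSO+LPS cells, against 184 ± 8.23 CPM in DMSO cells, and Kif5c had 69.6 ± 2.23 CPM in DMSO+LPS cells, against 27 ± 2.68 CPM in DMSO cells, while Kif21b had 7.78 ± 0.216 CPM in DMSO+LPS cells, against 72.9 ± 2.63 CPM in DMSO cells. Of 38 proteasome subunit genes, 34 rose, 7 beyond 2-fold, and 22 of the 34 change sign under library totals, and the inducible subunit gene Psmb8 had 332 ± 11.1 CPM in DMSO+LPS cells, against 96.3 ± 7.45 CPM in DMSO cells. Of 63 ribosomal protein genes, 34 rose under TMM and all 34 change sign under library totals. Of 40 Trim-named genes, 15 rose and 22 fell, or 37.5% and 55%, against 35.4% and 38.7% of all genes, 11 and 9 beyond 2-fold. Of the 15, 1, Trim35, changes sign under library totals. Trim21, an intracellular antibody receptor, had 622 ± 7.87 CPM in DMSO+LPS cells, against 38 ± 7.62 CPM in DMSO cells.

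Genes beyond 2-fold also stood side by side on chromosomes, a pattern looked for after the data had been seen. Counting runs of 4 or more consecutive tested genes that all rose beyond 2-fold, there were 35 runs with 172 genes, and 14 runs with 61 genes that all fell. Of all genes tested, 13.7% rose and 11.9% fell beyond 2-fold, and the number of runs that chance alone gives was not tested. The longest run, of 12 genes, spanned the interferon-inducible Ifi200 family on chromosome 1 and held Aim2, a sensor of cytosolic DNA, with a median log2 fold change of 4.39. A run of 10 on chromosome 11 held Irgm1, Tgtp1 and Ifi47 (270 kb, median 4.16), runs of 8 on chromosome 5 and 6 on chromosome 3 held guanylate-binding proteins (medians 5.08 and 5.95), and a run of 6 on chromosome 19 held the Ifit genes (112 kb, median 5.51). Chemokine runs stood on chromosome 11 (Ccl2 to Ccl8), chromosome 5 (Cxcl9 to Cxcl11, median 9.90) and chromosome 8 (Ccl22, Cx3cl1 and Ccl17). The longest run of genes that fell, 6 on chromosome 2, held Zfp970, Zfp971 and Zfp931 with a median of -2.95. Other runs held genes of unlike names over long spans, such as Kif5c to Nmi (5 genes, 2354 kb) and Mob1b to Ankrd17 (5 genes, 1648 kb). Where a run holds paralogs, these can share reads of 50 bases, so that single members are uncertain.

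Unevenness among the DMSO+LPS libraries was rare. Of 1285 genes that rose beyond 2-fold with a mean of 20 CPM or more in DMSO+LPS cells, 2 had a highest library more than 2-fold above the next, Il12b and the noncoding G530011O06Rik, and in both the highest was DMSO+LPS replicate 2. G530011O06Rik had 17.7, 69.7 and 29.2 CPM in DMSO+LPS cells, against 0.168, 1.86, 0.159 and 0.825 CPM in DMSO cells. DMSO replicate 2 was also the highest of the DMSO libraries for it. Of the genes beyond 2-fold, 27 that rose had no counts in any DMSO library, the highest being the selectin gene Sele with 15.6 CPM in DMSO+LPS cells, and 17 that fell had no counts in any DMSO+LPS library, the highest being Rtn4rl1 with 1.82 CPM in DMSO cells.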
